A study of Mus musculus with 4 samples.

Results

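The metalloproteinases that cut cartilage matrix and cell-surface proteins, together with their tissue inhibitors, were followed in chondrocytes of mice with a conditional deletion of the histone demethylase genes Kdm6a and Kdm6b. Members were taken by symbol, as every gene whose name is Mmp, Adam, Adamts, Adamtsl or Timp followed by a number. This gave 74 of the 17575 genes listed in the files, made up of 23 Mmp, 23 Adam, 19 Adamts, 5 Adamtsl and 4 Timp genes. The knockout (KO) libraries came from mice with the transgene Col2Cre(Tg) and the floxed alleles Kdm6a(fl/fl) and Kdm6b(fl/fl), in which Cre is driven by the Col2 promoter, so that deletion takes place in cells that have used this promoter and not in other cells of the tissue. The wild type (WT) libraries came from mice for which no transgene or floxed allele is labelled. Mice of both groups were 10 days old and of the strain labelled C57/Bl6. Rib cartilage was digested overnight with collagenase, and the cells were filtered and plated before RNA was extracted with TRIzol, so the values describe isolated cells in dishes and not intact cartilage. The design text speaks of triplicates, and 2 KO and 2 WT libraries were analysed here.

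Matrix metalloproteinases (Mmp) are secreted or membrane-bound zinc enzymes, made as inactive precursors, that cleave collagens, proteoglycans and other matrix proteins. Adam proteins are membrane-anchored relatives, several of which release growth factors, cytokines and receptors from the cell surface. Adamts proteins are secreted enzymes with thrombospondin repeats, among them the aggrecanases, which cut the cartilage proteoglycan aggrecan, and the enzymes that trim procollagens. Adamtsl proteins share the repeats and lack the protease domain. Timp proteins bind the active site of metalloproteinases and block them. In growing cartilage these enzymes are known for remodelling the matrix around hypertrophic chondrocytes, and in osteoarthritis for destroying it.

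Each library held 31178248 to 32332044 estimated counts, of which the 74 genes took 0.853% and 1.061% in the KO libraries and 0.928% and 1.115% in the WT libraries. Expression is given below in CPM (counts scaled to the size of the library, with the TMM method of edgeR) where groups are compared. Where genes are compared with each other it is given in FPKM. These are the authors' deposited values per length of transcript, to which TMM was not applied here. Kdm6a, the first targeted gene, had 28.6 and 31.4 CPM in the KO libraries and 52.6 and 56.9 CPM in the WT libraries. Kdm6b, the second, had 51.4 and 46.2 CPM in KO and 131 and 118 CPM in WT. Both were lower in KO (edgeR adjusted p = 0.00489 and 0.00174), and transcripts of both remained. The labels do not say which exons are floxed, and counts per gene include reads outside them. The cartilage collagen gene Col2a1 stood at 24370 CPM or more in every library, and the summed level of 9 chondrocyte markers was 53041 and 51120 CPM in KO and 39366 and 37665 CPM in WT. Most of each sum was Col2a1. Of these 9 markers 2 rose (Col2a1 and Col9a1) and 3 fell (Comp, Matn1 and Chad). Of all 13773 genes tested 3.62% rose and 5.63% fell. The median log2 fold change of the 9 markers was 0.03. In bulk RNA, fewer cells of a type and less RNA per cell cannot be told apart, and this holds for every value below.

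The inhibitor Timp1 and the stromelysin Mmp3 were the most abundant members. Timp1, which blocks most secreted Mmp enzymes, had 4646 and 4405 FPKM in the KO libraries and 3113 and 2765 FPKM in the WT libraries. Mmp3, which degrades proteoglycans and activates other precursors, had 910 and 2181 FPKM in KO and 1839 and 2815 FPKM in WT. The KO libraries, and less so the WT libraries, were thus far apart for Mmp3, while each Timp1 pair was close. Mmp3 made up 87.6% and 91.1% of the summed Mmp FPKM in KO and 88.8% and 90.9% in WT. Averaged over the 4 libraries, 30 of the 74 members reached 1 FPKM and 14 reached 10 FPKM. After Timp1 and Mmp3 came Timp3 with a mean of 302 FPKM, the collagenase Mmp13 with 77.2 FPKM and Timp2 with 68.7 FPKM. Among the other families Adamts1 led the Adamts genes with a mean of 41.1 FPKM, Adam9 the Adam genes with 30.2 FPKM, and Adamtsl4 the Adamtsl genes with 2.48 FPKM.

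**Figure D1:**
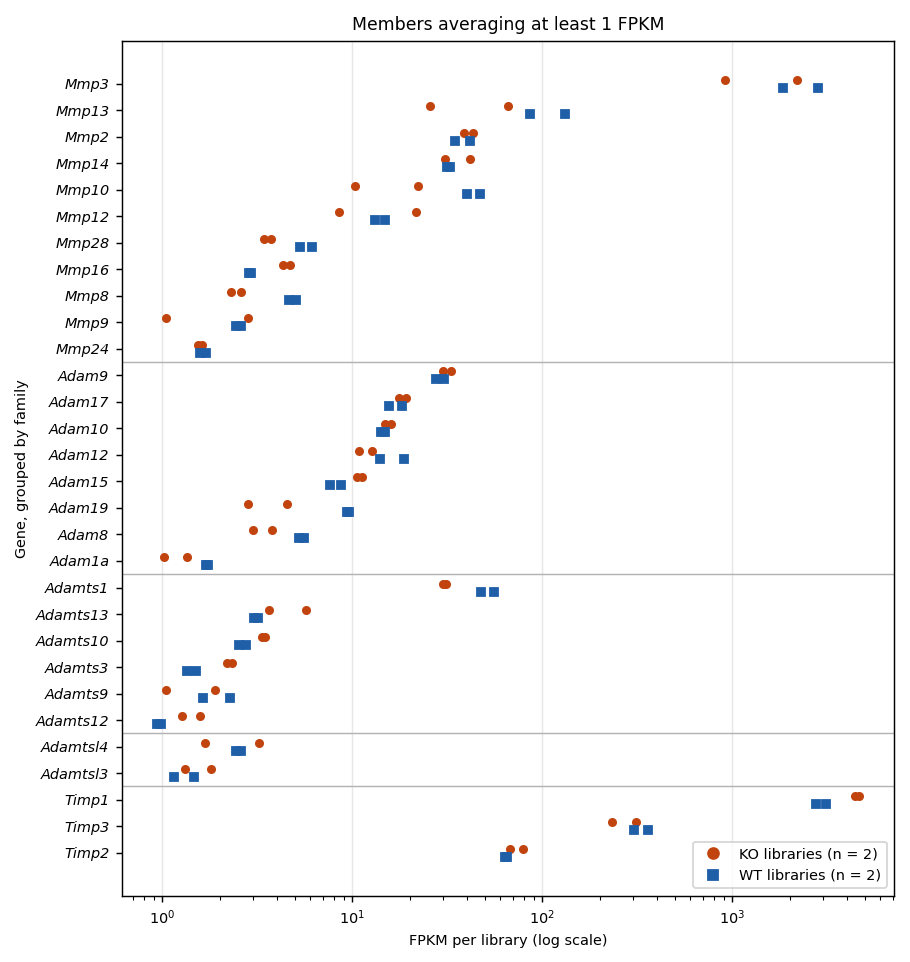
FPKM on a log scale for each member that averaged at least 1 FPKM over the 4 libraries, grouped by family, with 1 point for each KO and WT library. Timp1 lies highest, with 4646 and 4405 FPKM in KO against 3113 and 2765 FPKM in WT, and the points of Mmp3, Mmp12 and Mmp13 are widely spread.

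Of the 74 members 56 passed the filter on low counts and were tested. At an edgeR adjusted p under 0.05, 3 rose in KO (Timp1, Mmp16 and Adamts3), 6 fell (Mmp10, Adam19, Mmp8, Adamts1, Mmp28 and Adam8), and 47 did not pass. The shares were 5.36% rising and 10.7% falling, against 3.62% and 5.63% of all 13773 genes tested. DESeq2 likewise called 3 members that rose and 6 that fell, against 5.26% and 7.8% of the genes it tested, with Adam12 in place of Mmp10. By family, 1 of 18 tested Mmp genes rose and 3 fell, 0 of 15 Adam genes rose and 2 fell, 1 of 16 Adamts genes rose and 1 fell, 0 of 4 Adamtsl genes were called, and 1 of 3 Timp genes rose. At an unadjusted p under 0.05 there were 17 of the 56 members, or 30.4%, against 29.2% of all genes, and no Adamtsl gene was among them. DESeq2 called no Adamtsl gene. The KO and WT libraries did not overlap in 23 members, or 41.1%, against 61.7% of all genes. In 9 of these both KO libraries were above both WT libraries and in 14 below, against 30.9% and 30.7% of all genes. The median log2 fold change was -0.05 over the tested members and 0.00 over all tested genes. In edgeR every one of the 9 calls needed both WT libraries. Without WT replicate 1 or without WT replicate 2, edgeR called 0 genes in the whole table, with 12 and 10 members and 3442 and 2587 genes at an unadjusted p under 0.05. DESeq2 then still called 4 members and 3 members, with Timp1, Adam19 and Adamts1 among them each time.

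**Figure D2:**
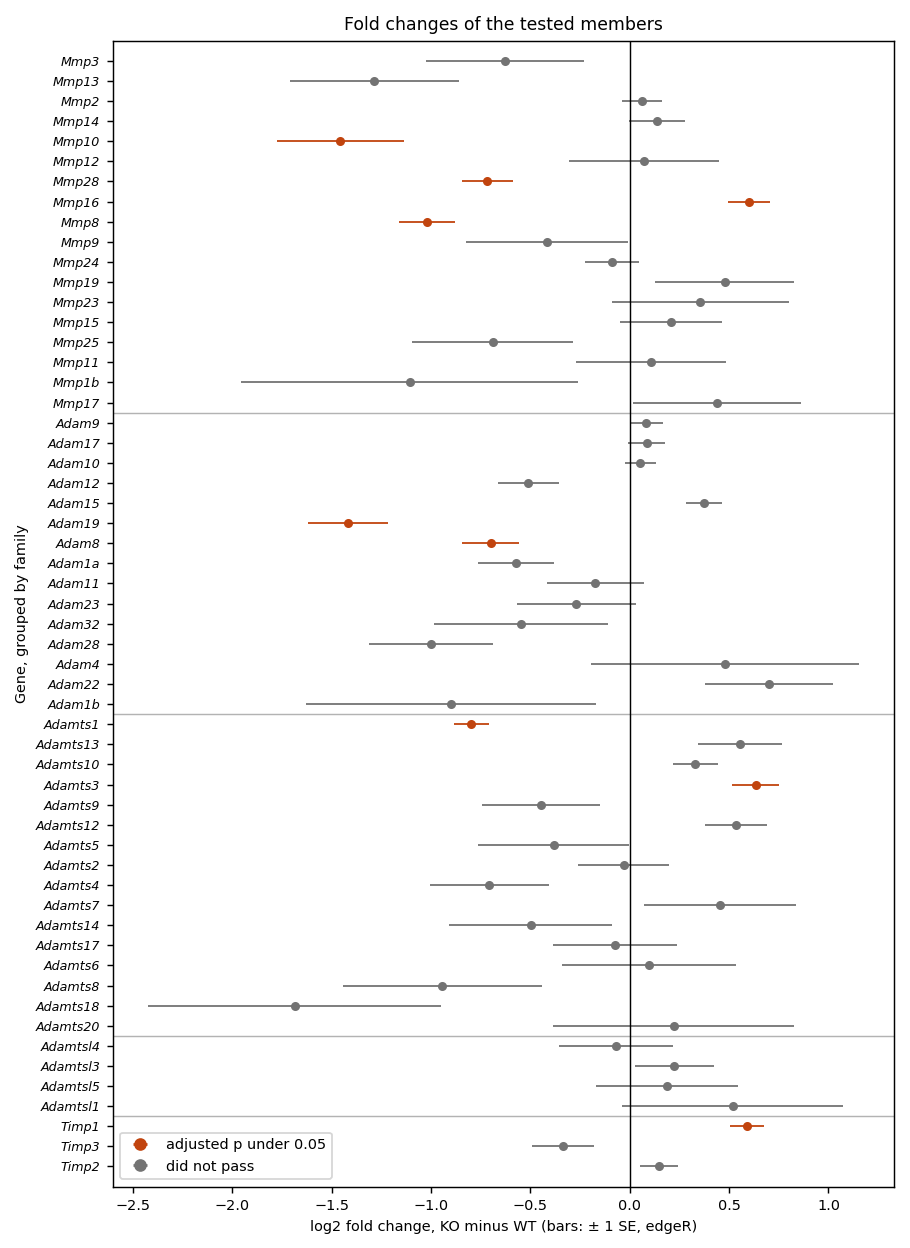
Log2 fold change, KO minus WT, of the 56 tested members grouped by family, with bars of ± 1 standard error from edgeR. Coloured points passed an adjusted p of 0.05. The 3 that rose lie near 0.6 and the 6 that fell between -1.46 and -0.70, while many uncalled members, such as Mmp13 at -1.29, have long bars.

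**Figure D3:**
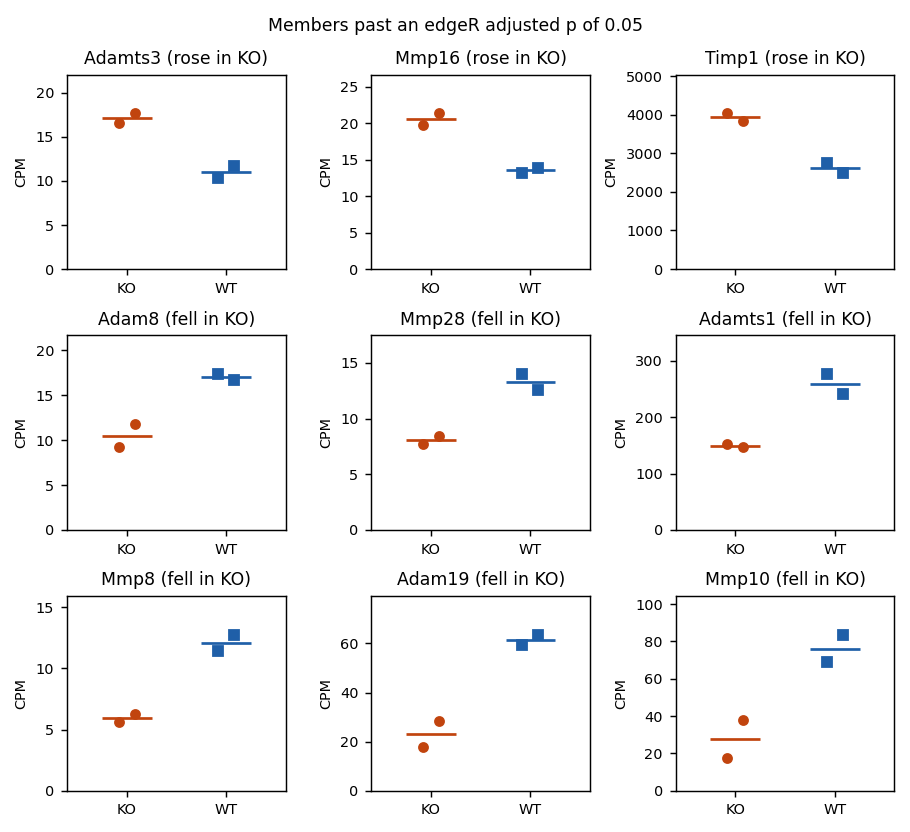
CPM of the 9 called members in each KO and WT library, 1 panel a gene, with the axis of each panel starting at 0. The libraries of the 2 groups do not overlap in any panel, and the KO pair of Mmp10 is far apart (17.5 and 37.9 CPM).

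The 10 Mmp genes of a row on mouse chromosome 9 lie side by side, in the order Mmp13, Mmp12, Mmp1b, Mmp3, Mmp1a, Mmp10, Mmp8, Mmp27, Mmp20 and Mmp7, and they hold most of the Mmp expression in these cells. Genes of this row are known for activation by AP-1 (Fos and Jun proteins) through a site close to the start. The promoters of the 5 genes of the row that were best expressed here are printed from 250 bases before to 50 bases after the RefSeq start on GRCm38.p6, all on the plus strand, with matches to the AP-1 motif TGANTCA in capitals. They are at chr9:7272264-7272563 (Mmp13), chr9:7347124-7347423 (the Mmp12 promoter, of a pair, that holds a match), chr9:7445572-7445871 (Mmp3), chr9:7502092-7502391 (Mmp10) and chr9:7558179-7558478 (Mmp8).
Mmp13: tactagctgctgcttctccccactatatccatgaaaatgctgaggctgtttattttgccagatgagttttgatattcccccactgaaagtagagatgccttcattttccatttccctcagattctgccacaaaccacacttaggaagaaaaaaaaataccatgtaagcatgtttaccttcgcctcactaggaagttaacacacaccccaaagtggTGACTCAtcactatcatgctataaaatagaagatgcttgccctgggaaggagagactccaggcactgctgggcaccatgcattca
Mmp12: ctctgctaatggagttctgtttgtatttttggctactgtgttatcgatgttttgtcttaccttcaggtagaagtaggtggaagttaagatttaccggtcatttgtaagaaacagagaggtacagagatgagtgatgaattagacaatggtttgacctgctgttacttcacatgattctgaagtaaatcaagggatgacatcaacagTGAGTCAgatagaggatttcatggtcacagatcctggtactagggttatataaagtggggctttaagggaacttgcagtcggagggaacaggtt
Mmp3: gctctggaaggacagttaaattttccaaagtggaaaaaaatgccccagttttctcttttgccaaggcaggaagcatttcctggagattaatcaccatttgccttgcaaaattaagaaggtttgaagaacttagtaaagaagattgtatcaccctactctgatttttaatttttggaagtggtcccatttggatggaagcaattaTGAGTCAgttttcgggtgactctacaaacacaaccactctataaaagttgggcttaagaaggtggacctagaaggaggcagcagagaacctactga
Mmp10: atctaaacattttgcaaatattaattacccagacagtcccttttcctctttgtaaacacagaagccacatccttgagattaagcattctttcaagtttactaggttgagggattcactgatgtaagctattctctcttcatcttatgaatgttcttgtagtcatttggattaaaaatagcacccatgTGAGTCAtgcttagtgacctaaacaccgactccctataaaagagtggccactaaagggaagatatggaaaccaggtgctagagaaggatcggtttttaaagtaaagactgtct
Mmp8: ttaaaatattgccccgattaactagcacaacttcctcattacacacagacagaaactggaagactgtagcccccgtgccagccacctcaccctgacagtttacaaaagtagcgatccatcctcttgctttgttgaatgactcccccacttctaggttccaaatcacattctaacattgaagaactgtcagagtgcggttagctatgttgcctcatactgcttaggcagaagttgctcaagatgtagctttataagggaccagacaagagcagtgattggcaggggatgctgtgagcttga

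The first base of the match lay at position -35 in Mmp13, -44 in Mmp12, -46 in Mmp3 and -63 in Mmp10, counted from the start. In the Mmp8 window these letters did not occur. Searched on both strands, the motif was present in promoters of 8 of the 10 genes of the row, or 80.0%, the exceptions being Mmp8 and Mmp27. It was present in 2 of the 36 other members with a promoter in the table, or 5.56%, and in 8.97% of 27025 genes. TATAAA on the sense strand was present in the same 8 genes of the row and in 9.77% of all genes. Its first base lay at -16 in Mmp13, 5 in Mmp12 (after the start), -7 in Mmp3 and -29 in Mmp10. The starts are those of RefSeq and were not checked in these cells. All positions given here depend on them and may not be comparable between genes. A match describes letters and is not evidence of binding.

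In the row, Mmp8 and Mmp10 fell and Mmp3, Mmp13 and Mmp12 did not pass. Mmp8, a collagenase best known from neutrophils and also made by chondrocytes, had 5.58 and 6.29 CPM in KO and 11.4 and 12.7 CPM in WT. The groups were well separated, and a log2 difference of -1.02 (SE 0.14, edgeR adjusted p = 0.0118). Summed neutrophil markers overlapped between the groups, with 62.7 and 27.3 CPM in KO and 60.0 and 110 CPM in WT. Every tested neutrophil marker had a negative log2 fold change (median -0.85), and 0 of 6 passed. Their part in the fall of Mmp8 was not tested.

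Mmp10, a second stromelysin, had 17.5 and 37.9 CPM in KO and 68.8 and 83.3 CPM in WT, with both KO libraries below both WT libraries. Its log2 fold change was -1.46 (SE 0.32, edgeR adjusted p = 0.0411), and DESeq2 did not call it (adjusted p = 0.0542). Without WT replicate 1 or 2 the edgeR adjusted p was 0.112 and 0.190 for Mmp8 and 0.175 and 0.299 for Mmp10. The Mmp10 level is uncertain because Mmp3 is a close copy. The estimated counts of Mmp3 and Mmp10 add up to whole numbers within 0.015 in every library, so reads were divided between them. An error of 1% of the Mmp3 counts would be 544 and 1300 counts in KO and 1075 and 1622 counts in WT, against 574 and 1235 Mmp10 counts in KO and 2175 and 2532 in WT.

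Mmp13, the main collagenase of hypertrophic cartilage, had 67.4 and 175 CPM in KO and 230 and 361 CPM in WT. Both KO libraries lay below both WT libraries, and the spread within groups was wide. The log2 fold change of -1.29 did not pass (SE 0.43, edgeR adjusted p = 0.109). Mmp3 had 1661 and 3988 CPM in KO and 3400 and 5340 CPM in WT, which overlap (log2 fold change -0.63, SE 0.40, adjusted p = 0.334 by edgeR). Mmp12, the macrophage elastase, had 30.4 and 77.2 CPM in KO and 47.5 and 55.1 CPM in WT, with the WT pair lying between the KO libraries. Its log2 fold change was 0.07 (SE 0.38, edgeR adjusted p = 0.922). The result for Mmp12 depended on which KO library was used. Without KO replicate 1 edgeR called it higher (adjusted p = 0.0134) and without KO replicate 2 lower (adjusted p = 0.00667). Mmp13 was called lower by edgeR without KO replicate 1 (adjusted p = 0.0487) and without KO replicate 2 (0.000272), and by DESeq2 in the second case (0.00299) and not in the first (0.638). Mmp3 was called lower by edgeR without KO replicate 2 (adjusted p = 0.00248) and not by DESeq2 (0.132).

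Within the row, 2 ratios between genes differed between the groups. The FPKM ratio of Mmp3 to Mmp13 was 35.7 and 33.0 in KO and 21.4 and 21.5 in WT, close within each pair although the levels themselves differed by more than 1.5-fold within the KO and the WT pair. The ratio of Mmp12 to Mmp10 was 0.825 and 0.969 in KO and 0.328 and 0.314 in WT. It shares the uncertainty of the Mmp10 level, since reads were divided between Mmp3 and Mmp10. These ratios are descriptions, chosen after the levels had been seen. The 5 other genes of the row were near or at 0, with at most 0.658 CPM in any library.

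**Figure D4:**
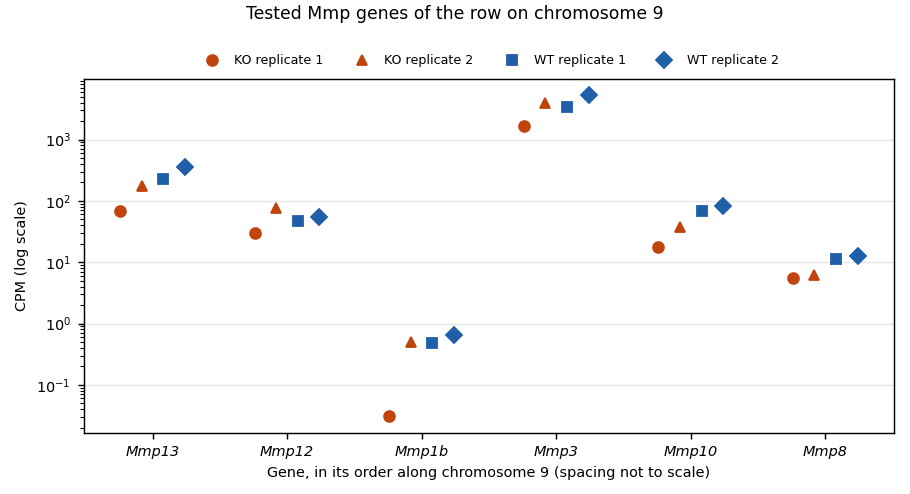
CPM on a log scale of the tested Mmp genes of the chromosome 9 row in each KO and WT library, in the order of the genes along the chromosome. KO replicate 1 is the lowest library for every gene shown, while KO replicate 2 lies above both WT libraries for Mmp12 (77.2 against 47.5 and 55.1 CPM).

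Outside the row, Mmp28 fell and Mmp16 rose. Mmp28 (epilysin) had 7.72 and 8.41 CPM in KO and 14.0 and 12.5 CPM in WT, and a log2 difference of -0.72 (SE 0.13, edgeR adjusted p = 0.0237). Mmp16, a membrane-type enzyme that activates the Mmp2 precursor, had 19.7 and 21.3 CPM in KO and 13.2 and 13.9 CPM in WT, and a log2 difference of 0.60 (SE 0.11, edgeR adjusted p = 0.0225). For both genes the 2 libraries of each group were close. Whichever library was left out, of KO or WT, DESeq2 called neither gene. Without WT replicate 1 or 2 the edgeR adjusted p was 0.132 and 0.192 for Mmp28 and 0.130 and 0.197 for Mmp16, and without KO replicate 1 it was 0.0511 for Mmp28.

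The abundant gelatinase and membrane-type genes did not pass. Mmp2 had 118 and 131 CPM in KO and 128 and 110 CPM in WT (log2 fold change 0.06, SE 0.10). Mmp14, the membrane-type enzyme that activates Mmp2 and itself cuts collagen, had 78.7 and 106 CPM in KO and 81.4 and 87.1 CPM in WT (log2 fold change 0.14, SE 0.14). The KO and WT libraries overlapped for both. Mmp9, the other gelatinase and a product of osteoclasts and leukocytes, had 3.26 and 8.93 CPM in KO and 7.75 and 8.53 CPM in WT and overlapped as well (log2 fold change -0.42, edgeR adjusted p = 0.534). Without KO replicate 2 both tools called Mmp9 lower (log2 fold change -1.31, adjusted p = 0.00468 by edgeR and 0.0104 by DESeq2). Osteoclast markers summed to 49.3 and 59.9 CPM in KO and 55.1 and 64.1 CPM in WT, nearly all of it Ctsk, and 0 of the 3 tested markers were called.

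Among the Adam genes, Adam19 and Adam8 fell. Adam19, a sheddase of neuregulins, had 17.7 and 28.3 CPM in KO and 59.5 and 63.4 CPM in WT. The groups lay far apart, and the log2 fold change was -1.42 (SE 0.20, edgeR adjusted p = 0.0126). Adam8, best known from leukocytes and also present in cartilage, had 9.22 and 11.8 CPM in KO and 17.3 and 16.7 CPM in WT (log2 fold change -0.70, SE 0.14, edgeR adjusted p = 0.0349). Of the 7 macrophage markers tested beside it, 2 fell (Cd14 and Lyz2), against 5.63% of all genes tested. The summed level of the list, most of it Cd14, was 93.2 and 109 CPM in KO and 175 and 179 CPM in WT, and the median log2 fold change was -0.76. The defining marker Csf1r was at 3.05 and 4.76 CPM in KO and 6.48 and 6.72 CPM in WT and did not pass (edgeR adjusted p = 0.0891). Ptprc had the lowest log2 fold change of the list, -1.45, with both KO libraries below both WT libraries. It did not pass (edgeR adjusted p = 0.0588). Adgre1 pointed the other way with a log2 fold change of 0.21, while Cd68 and Mrc1 had -0.25 and -0.21 without passing. C1qa and C1qb were too low to test, at 0.184 CPM or less. The part of the macrophage markers in the Adam8 difference was not tested. Without WT replicate 1 or 2 the edgeR adjusted p was 0.130 and 0.220 for Adam19 and 0.167 and 0.235 for Adam8, and without KO replicate 1 it was 0.0671 for Adam8.

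The other well expressed Adam genes did not pass. Adam9 had 132 and 120 CPM in KO and 124 and 114 CPM in WT. Adam10, the sheddase of Notch receptors, had 68.2 and 73.5 CPM in KO and 66.0 and 70.6 CPM in WT. Adam17, which releases TNF and ligands of the EGF receptor, had 77.9 and 84.8 CPM in KO and 81.9 and 71.3 CPM in WT. In all 3 the groups overlapped and the log2 fold changes were 0.08, 0.05 and 0.09 with standard errors of 0.08, 0.08 and 0.09. Adam12, which cleaves IGF-binding proteins, was lower in both KO libraries, with 82.7 and 97.4 CPM against 109 and 148 CPM in WT. Its edgeR adjusted p was 0.0906 and that of DESeq2 0.0180.

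Among the Adamts genes, Adamts1 fell and Adamts3 rose. Adamts1, which cleaves aggrecan and versican and was the most abundant Adamts gene, had 151 and 146 CPM in KO and 276 and 241 CPM in WT. Its log2 fold change was -0.80 (SE 0.09, edgeR adjusted p = 0.00676), the smallest adjusted p among the members. It took 65.7% and 64.7% of the summed Adamts FPKM in KO and 81.2% and 77.1% in WT, and the sum itself was 47.3 and 46.2 FPKM in KO and 68.8 and 61.8 FPKM in WT. Adamts3, an enzyme that removes the amino-terminal propeptide of procollagens, had 16.6 and 17.7 CPM in KO and 10.4 and 11.8 CPM in WT (log2 fold change 0.63, SE 0.12, edgeR adjusted p = 0.0267). DESeq2 did not call Adamts3 whichever library was left out, of KO or WT. Col2a1, its collagen substrate in cartilage, was also higher in KO, with 37111 and 36603 CPM against 26008 and 24370 CPM in WT (edgeR adjusted p = 0.0156). Without WT replicate 1 or 2 the edgeR adjusted p was 0.101 and 0.158 for Adamts1 and 0.132 and 0.190 for Adamts3.

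The aggrecanases of osteoarthritis were weakly expressed. Adamts5 had 3.63 and 8.32 CPM in KO and 6.33 and 9.25 CPM in WT, with overlapping groups (log2 fold change -0.38, edgeR adjusted p = 0.539). Adamts4 had 1.13 and 1.87 CPM in KO and 2.50 and 2.40 CPM in WT, lower in both KO libraries without passing (log2 fold change -0.71, edgeR adjusted p = 0.176). Adamts13, which cleaves von Willebrand factor, was above WT in both KO libraries, at 19.6 and 12.6 CPM against 10.5 and 11.4 CPM, and did not pass (log2 fold change 0.56, edgeR adjusted p = 0.144). Adamts10, which takes part in building fibrillin microfibrils, had 13.5 and 14.1 CPM in KO and 11.3 and 10.6 CPM in WT (log2 fold change 0.33, edgeR adjusted p = 0.119). Fbn1 and Fbn2, the fibrillins themselves, were both higher in KO (edgeR adjusted p = 0.0165 and 0.0156). Without KO replicate 2 edgeR called Adamts5 lower (adjusted p = 0.0286) and Adamts13 higher (0.00734).

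The Adamtsl genes overlapped between groups in every tested case. Adamtsl4, which binds fibrillin, had 6.65 and 12.8 CPM in KO and 9.74 and 10.7 CPM in WT. Adamtsl3 had 9.61 and 13.1 CPM in KO and 8.48 and 10.99 CPM in WT. Adamtsl5 stayed at 1.23 CPM or less in each library.

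Of the inhibitors, Timp1 rose and the others did not pass. Timp1 had 4033 and 3832 CPM in KO and 2737 and 2494 CPM in WT. Both KO libraries were above both WT libraries by a margin wider than either pair, and the log2 fold change was 0.59 (SE 0.09, edgeR adjusted p = 0.0129), a 1.5-fold difference. Timp1 lies on the X chromosome. The Y-linked genes Ddx3y and Uty were at most 0.158 and 0.0988 CPM in any library. Timp3, a matrix-bound inhibitor that also blocks Adam and Adamts enzymes, had 1439 and 1082 CPM in KO and 1434 and 1748 CPM in WT (log2 fold change -0.34, SE 0.16, edgeR adjusted p = 0.210). Only KO replicate 2 stood clearly below WT, and without KO replicate 1 edgeR called Timp3 lower (adjusted p = 0.0260). Timp2 had 243 and 284 CPM in KO and 232 and 244 CPM in WT (log2 fold change 0.15, SE 0.09). For Timp1 the edgeR adjusted p without WT replicate 1 or 2 was 0.112 and 0.198, and DESeq2 called it in both cases.

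Set against each other by FPKM, inhibitors outweighed Mmp transcripts in every library, by very different margins. The summed Timp FPKM over the summed Mmp FPKM was 4.83 and 1.97 in KO and 1.68 and 1.03 in WT. Timp1 over Mmp3 was 5.10 and 2.02 in KO and 1.69 and 0.982 in WT. Both ratios were higher in the KO libraries, and KO replicate 2 lay closer to WT replicate 1 than to KO replicate 1. The spread comes mainly with the Mmp sum, which was 1039 and 2394 FPKM in KO and 2071 and 3096 FPKM in WT, while the Timp sum was 5023 and 4715 FPKM in KO and 3481 and 3191 FPKM in WT. Transcript ratios say nothing of enzyme activity, which also depends on activation of precursors.

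Several members differed more between the 2 KO libraries than between the groups. In 9 of 56 tested members, or 16.1%, KO replicate 1 was more than 2-fold below KO replicate 2, against 1.95% of all tested genes. These were Mmp3, Mmp9, Mmp10, Mmp12, Mmp13, Mmp19, Mmp1b, Adamts5 and Adam4. In 2 members (Adam1b and Adamts18) KO replicate 1 was more than 2-fold above KO replicate 2, against 0.922% of all genes. In the WT pair 1 member (Adamtsl1) differed by more than 2-fold, against 1.86% of all genes. Mmp1b, Adam4, Adam1b, Adamts18 and Adamtsl1 averaged under 1 CPM. Of the 41 tested members averaging at least 1 CPM, KO replicate 1 was more than 2-fold below in 7. This was 17.1%, against 1.28% of all such genes. KO replicate 1 was that far above in 0 of the 41, and the WT pair that far apart in 0. The fold differences of KO replicate 2 over KO replicate 1 were 2.40 for Mmp3, 2.60 for Mmp13, 2.54 for Mmp12, 2.16 for Mmp10, 2.73 for Mmp9 and 2.29 for Adamts5. The median absolute log2 difference over tested members was 0.43 in the KO pair and 0.20 in the WT pair, against 0.12 and 0.14 over all tested genes.

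**Figure D5:**
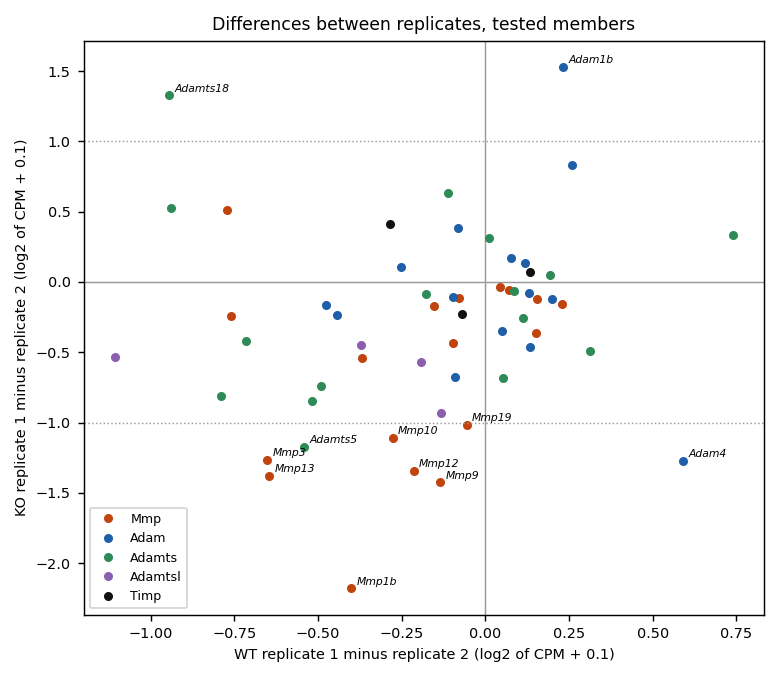
Replicate 1 minus replicate 2 in KO (vertical) against the same in WT (horizontal), as log2 of CPM + 0.1, for the 56 tested members coloured by family. Mmp3, Mmp9, Mmp10, Mmp12 and Mmp13 lie more than 1 below 0 in KO, and most members lie close to 0 in WT.

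Other genes differed between the same 2 KO libraries. The cytokine gene Il6 had 5.80 and 30.7 CPM in KO replicates 1 and 2 and 12.5 and 16.2 CPM in WT, and Plau, the plasminogen activator that starts the activation of Mmp precursors, had 16.7 and 64.8 CPM in KO and 59.6 and 81.1 CPM in WT. Tlr2 had 68.2 and 136 CPM in KO and 70.8 and 95.8 CPM in WT. KO replicate 1 was thus the lowest library for these 3 genes as well, which were picked for this difference. Markers of other tissues also differed. Skeletal muscle markers summed to 4.58 and 19.2 CPM in KO and 8.001 and 7.31 CPM in WT, with 0 of 4 tested markers called. Tendon markers, nearly all Thbs4, summed to 78.4 and 175 CPM in KO and 108 and 151 CPM in WT, with 0 of 5 called. The part of these differences in the spread of the Mmp genes was not tested.

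Among regulators of metalloproteinases, Plaur and Serpine2 fell and Reck rose. In a list of 25 activators, inhibitors and receptors, 23 were tested, of which 1 rose and 3 fell, against 3.62% and 5.63% of all genes tested. The plasminogen activators Plau and Plat did not pass (edgeR adjusted p = 0.365 and 0.566). Plaur, the receptor of the urokinase encoded by Plau, had 338 and 295 CPM in KO and 697 and 601 CPM in WT (edgeR adjusted p = 0.00520), and Serpine2, a serine protease inhibitor, 920 and 816 CPM in KO and 1624 and 1417 CPM in WT (edgeR adjusted p = 0.00960). Reck, a membrane-anchored inhibitor of Mmp enzymes, rose to 61.4 and 58.9 CPM in KO, against 42.9 and 43.3 CPM in WT (edgeR adjusted p = 0.0140). The list had a median of -0.22 on the log2 scale.

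A further list held 29 genes for transcriptional regulators, cytokines and receptors linked to metalloproteinase expression. All were tested, and 1 rose and 5 fell, again against 3.62% and 5.63% of all genes, with a median of -0.23. The AP-1 members Jun and Fosl1 were among those that fell. The other AP-1 members of the list, Fos, Junb, Jund and Fosl2, did not pass. Their log2 fold changes were -0.49, -0.25, -0.20 and 0.20. The part of AP-1 in the Mmp differences was not tested. Jun had 123 and 119 CPM in KO and 235 and 218 CPM in WT (edgeR adjusted p = 0.00269), and Fosl1 had 262 and 209 CPM in KO and 453 and 395 CPM in WT (edgeR adjusted p = 0.0140). Epas1, which encodes a hypoxia-inducible factor known to raise Mmp13, had 20.3 and 19.4 CPM in KO and 29.9 and 30.0 CPM in WT (edgeR adjusted p = 0.0128). Mef2c, a factor of hypertrophic differentiation, rose to 11.5 and 8.93 CPM in KO, against 5.28 and 4.94 CPM in WT (edgeR adjusted p = 0.0206). Elf3 and Runx2 made up the 5.

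Metallopeptidases of other families that were called were all lower in KO. The list of 22 genes also held Thsd4 and Papln, which like the Adamtsl genes lack the protease domain. Of the 22 genes 18 were tested, 0 rose and 5 fell (Cpe, Cpxm2, Pappa, Cpd and Cpm), where 3.62% and 5.63% of all genes did. The median log2 fold change was -0.35. Pappa, which cleaves IGF-binding proteins, had 82.3 and 84.0 CPM in KO and 126 and 156 CPM in WT (edgeR adjusted p = 0.0133). Cpe, a carboxypeptidase that trims peptide precursors, had 635 and 512 CPM in KO and 1073 and 1092 CPM in WT (edgeR adjusted p = 0.00909). Of 18 matrix substrates 5 rose and 3 fell, set against those same shares, with a median of 0.16. Comp had 124 and 138 CPM in KO and 489 and 450 CPM in WT (edgeR adjusted p = 0.000915), and Matn3 had 95.3 and 115 CPM in KO and 23.8 and 30.7 CPM in WT (edgeR adjusted p = 0.00197). The named substrates therefore moved both ways. When either WT library was left out, edgeR called no gene in the whole table, and so none in these 4 lists.

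The remaining marker lists are given as summed CPM. Their calls stand beside 3.62% of all genes tested that rose and 5.63% that fell. Endothelial markers were at 83.1 and 69.0 CPM in KO and 113 and 105 CPM in WT, with 3 of 6 called lower. All 6 had negative log2 fold changes (median -0.48). Osteoblast markers were at 3.36 and 4.48 CPM in KO and 8.86 and 8.85 CPM in WT, with 1 of 6 called lower. These 6 also all had negative log2 fold changes (median -1.68). Erythroid markers were at 8.88 and 9.73 CPM in KO and 16.2 and 19.7 CPM in WT. Of 3 tested, 2 were called lower, and Alas2 had a log2 fold change of 0.215. The sums of these lists were thus lower in both KO libraries than in either WT library. Taken gene by gene, 30.7% of all genes tested lay that way. Smooth muscle markers were at 171 and 173 CPM in KO and 52.5 and 65.5 CPM in WT, with Acta2, which makes up nearly all of the sum, the 1 of 4 that rose, while Myh11 and Cnn1 had log2 fold changes of -0.68 and 0.09. Adipocyte markers were at 12.1 and 12.4 CPM in KO and 13.8 and 11.2 CPM in WT with 0 of 1 called, and 0 of 6 tested neutrophil markers were called. No marker of any list was at 0 in all 4 libraries.

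In the authors' deposited table of their own DESeq2 comparison, 3 members rose and 6 fell at an adjusted p under 0.05, against 3.33% and 5.19% of the genes in that table. Adam12 was among the 6 in the authors' deposited table, with a log2 fold change of -0.50 and an adjusted p of 0.0250, and Mmp10 was not, with an adjusted p of 0.0755. Only Adam19 carried the authors' mark for a decrease in the authors' deposited table, and no member carried their mark for an increase.

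The 18 members that were not tested held at most 27.5 counts over the 4 libraries and at most 0.16 FPKM in any library. They were Mmp1a, Mmp7, Mmp20, Mmp21 and Mmp27, Adam3, Adam5, Adam7, Adam18, Adam21, Adam30, Adam33 and Adam39, Adamts15, Adamts16 and Adamts19, Adamtsl2, and Timp4. Several of the Adam genes among them are known from testis. At this depth a difference between groups was not detectable for these genes. The counts of Mmp1a with Mmp1b and of Adam1a with Adam1b likewise add up to whole numbers within 0.015, so their division between the copies is uncertain.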

How the data were processed

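The data are values for 2 KO and 2 WT RNA-seq libraries of plated rib chondrocytes, grouped and numbered as their titles say. The labels do not say that each library is a separate animal, so a p-value measures only how far these libraries spread, which may be technical. The submitters' processing notes name Bowtie2 2.2.5 and the mouse build mm9. Not given in the sources used here are the counting tool, the annotation release and the strand setting. Per the file headers, the authors deposited an expected count and an FPKM value per gene and library. They also deposited a DESeq2 comparison with the mean signal of each group, a log2 fold change, and a p-value and adjusted p-value per gene. Genes missing from a library's list were set to 0.

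Expected counts were rounded to whole numbers. The test was edgeR 4.0.16 under R 4.3.3 (TMM, filterByExpr, quasi-likelihood F test, Benjamini-Hochberg adjustment over 13773 genes, threshold 0.05). Log2 fold changes are KO minus WT, and a standard error is the fold change over the square root of F. The biological coefficient of variation was 10.3%. The test was also run on simulated counts, drawn independently for each gene and library. A shift shared by many genes of a library, as between the KO libraries here, was not simulated, so that check does not cover it. Alternatives were DESeq2 1.42.0, other scalings and filters, limma 3.58.1 on log2(FPKM + 0.1) or log2(FPKM + 1), a replicate block, summed transcript entries (26, none a member), and each library left out. Differences between replicates used log2(CPM + 0.1). Members, lists and tests were chosen with earlier results of these data known. Members named were those past the threshold, the 3 most abundant of each family, all Timp genes and a set of well-known enzymes, and of each list up to 4 genes with the smallest p. For 1 gene of these lists no result is reported here. Others, such as Mmp12, Adam12, Mmp19, Il6, Plau, Plat, Tlr2, Fbn1, Elf3 and single markers, and the motifs and ratios, were chosen after their values were seen. RefSeq promoters (GRCm38.p6) were matched by gene number for 46 of the 74 members. Because the files use mm9, coordinates are given for these promoters only.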

Additional observations from a re-analysis of the deposited data

How the results depend on the processing

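With 2 libraries a group, single libraries set much of the result. Leaving out each library in turn, edgeR called 0 to 5 members that rose, 0 to 13 that fell, 0 to 450 genes that rose in all and 0 to 825 that fell. DESeq2 called 1 and 1 rising members and 3 and 2 falling members without WT replicate 1 and 2. In all genes it called 200, 224, 188 and 124 that rose without KO replicate 1, KO replicate 2, WT replicate 1 and WT replicate 2, and 459, 352 and 292 that fell without KO replicate 1, WT replicate 1 and WT replicate 2. limma on FPKM without a filter called 0 members and 0 genes in either direction (13 members and 4055 genes at an unadjusted p under 0.05). With the filter, limma called 561 rising and 507 falling genes at a pseudocount of 0.1 and 568 and 512 at 1, more rising than falling, against 498 and 776 by edgeR, and Mmp10 and Adamts3 lost their calls. Without the filter on low counts edgeR called 265 genes that rose and 455 that fell, and Adam8 and Mmp10 lost theirs. Replicate numbers showed no clear pairing (correlation of replicate differences between KO and WT 0.107 over 13773 genes), and with a replicate block edgeR called 5 members that rose and 9 that fell, with Adam15 and Adamts12 (higher) and Mmp3, Mmp13 and Adam12 (lower) gained (adjusted p = 0.0309, 0.0494, 0.00654, 0.000299 and 0.00422), and 949 genes that rose and 1367 that fell in all. Of the members gained with the block, Mmp3, Mmp13 and Adam12 were lower in replicate 1 than in replicate 2 in both KO and WT. Adamts12 was higher in replicate 1 in both, and Adam15 differed in opposite directions. DESeq2 size factors, upper-quartile scaling and summed transcript entries changed no member's call.

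Among members that did not pass, leaving out a library turned the direction of 8 that the naming rule covers, and of Mmp12. Values are log2 fold changes by edgeR, then DESeq2, and each range is that of edgeR. Mmp2 was at -0.0081 and -0.0085 without KO replicate 2 and at -0.0447 and -0.0467 without WT replicate 2 (range -0.0447 to 0.1813). Without KO replicate 2, Mmp14 was at -0.0882 and -0.0886 (range to 0.3386), Adamtsl3 at -0.0077 and -0.0085 (to 0.4344) and Adamtsl5 at -0.1518 and -0.1535 (to 0.4672). Without WT replicate 2, Adam17 was at -0.0053 and -0.0072 (to 0.1905). Without KO replicate 1, Mmp9 was at 0.1361 and 0.1318 (range from -1.3062), Adamts5 at 0.0977 and 0.0930 (from -1.0889) and Adamtsl4 at 0.3263 and 0.3221 (from -0.6090), and Adamtsl4 without WT replicate 2 was at 0.0012 by edgeR. Mmp12, at 0.07 with all libraries, was at -0.744 and -0.745 without KO replicate 2 and at -0.032 and -0.031 without WT replicate 1, and past the threshold in either direction when 1 KO library was left out. Of members named for replicate differences alone, Mmp19, Adam4 and Adamtsl1 also turned without passing by edgeR. The cause was not tested.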
